A study of Mus musculus with 6 samples.

Results

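The genes described here are 34 subunits of the proteasome, followed by ribosome profiling in resting and activated mouse CD4+ T cells. They were chosen by gene identifier from a written list, not by their measured values: 7 alpha subunits (Psma1 to Psma7), 7 constitutive beta subunits (Psmb1 to Psmb7), 3 immunoproteasome beta subunits (Psmb8, Psmb9 and Psmb10), 6 base ATPases (Psmc1 to Psmc6) and 11 other subunits of the regulatory particle (Psmd1, Psmd2, Psmd3, Psmd4, Psmd6, Psmd7, Psmd8, Psmd11, Psmd12, Psmd13 and Psmd14). All 34 are among the 22322 genes of the deposited table, and all 34 passed the filter on low counts, as 6775 genes did in all. The table gives Ensembl identifiers without symbols. The symbols used below are those paired with the identifiers in the list, and no reference table used here could check that pairing.

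CD4+ T cells were taken from female C57BL/6J mice, aged 6 weeks (spleen and lymph nodes), and purified by negative selection. Both groups are labelled untreated at 0 h of the study's inhibitor treatments, so neither had received an inhibitor of transcription or translation. Resting cells (3 libraries, replicates 2, 3 and 4) were compared with cells activated by beads carrying CD3 and CD28 antibodies (3 libraries, replicates 2, 3 and 4). The sources used here do not give how long the beads were present. The labels call the replicates biological but do not say whether each came from its own animal, culture or pool, so p-values measure only the spread between these libraries. Ribosome profiling sequences the mRNA fragments that ribosomes protect, and the counts used here are those in coding sequence (CDS). Fewer ribosomes on an mRNA and less of that mRNA cannot be told apart in these counts, nor can fewer cells of a type and less RNA per cell. Values listed for a group are always those of replicates 2, 3 and 4, in that order.

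The proteasome degrades proteins that carry a ubiquitin chain. Its core particle is a barrel of stacked rings: the outer alpha rings gate the entry, and the inner beta rings hold the active sites. The regulatory particle caps the barrel, binds ubiquitin, removes it, and unfolds the substrate with a ring of ATPases. In lymphocytes and in cells exposed to interferon, the catalytic beta subunits Psmb5, Psmb6 and Psmb7 can be replaced by Psmb8, Psmb9 and Psmb10, which changes the peptides made for presentation on MHC class I molecules.

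CDS counts summed to between 437200 and 594508 in the resting libraries and to between 511483 and 1074656 in the activated ones. A subunit had between 45 and 536 CDS counts in a library, and between 487 and 2038 over all 6 libraries. Levels are given as CPM, CDS counts scaled to a common library size (1e6 counts) by TMM, a method that assumes most genes do not change between libraries. Changes are log2 changes, activated over resting, from edgeR's quasi-likelihood test on all 6775 genes, with Benjamini-Hochberg adjustment and a threshold of 0.05. No coding lengths were used here, so the level of a subunit is compared with itself and not with that of another. Markers of T cells or of other cell types could not be looked up without symbols and were not analysed here. The same held for the proteasome's activators, assembly factors and ubiquitin genes.

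Footprints on most proteasome subunits were higher in activated cells, by modest amounts. Of the 34 subunits, 21 rose (61.8%), 0 fell and 13 did not pass the test. Over all genes tested, 45.5% changed, 24.1% rising and 21.4% falling. At an unadjusted edgeR p under 0.05, 24 subunits were higher and 0 lower, and the same count over all genes is not given here. Both DESeq2 and limma voom also called 0 subunits lower, where they called 822 of 8554 and 1452 of 6775 genes lower. The median log2 change of the subunits was 0.46, a fold of 1.37, against -0.04 over all genes tested. A single subunit, Psma7, rose at least 2-fold, as did 14.7% of all genes tested. In 23 subunits (67.6%) every activated library lay above every resting library, as in 28.1% of all genes tested, and in 0 subunits did every activated library lie below.

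The log2 changes of the subunits were also less spread than those of all genes tested. The standard deviation of their log2 changes was 0.27, against 1.02 over all genes tested, and their quartiles were 0.32 and 0.59. The standard errors of single subunits ran from 0.14 to 0.20. The spread over genes with similar counts was not computed, and how much counting noise adds to the spread over all genes was not tested.

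**Figure D1:**
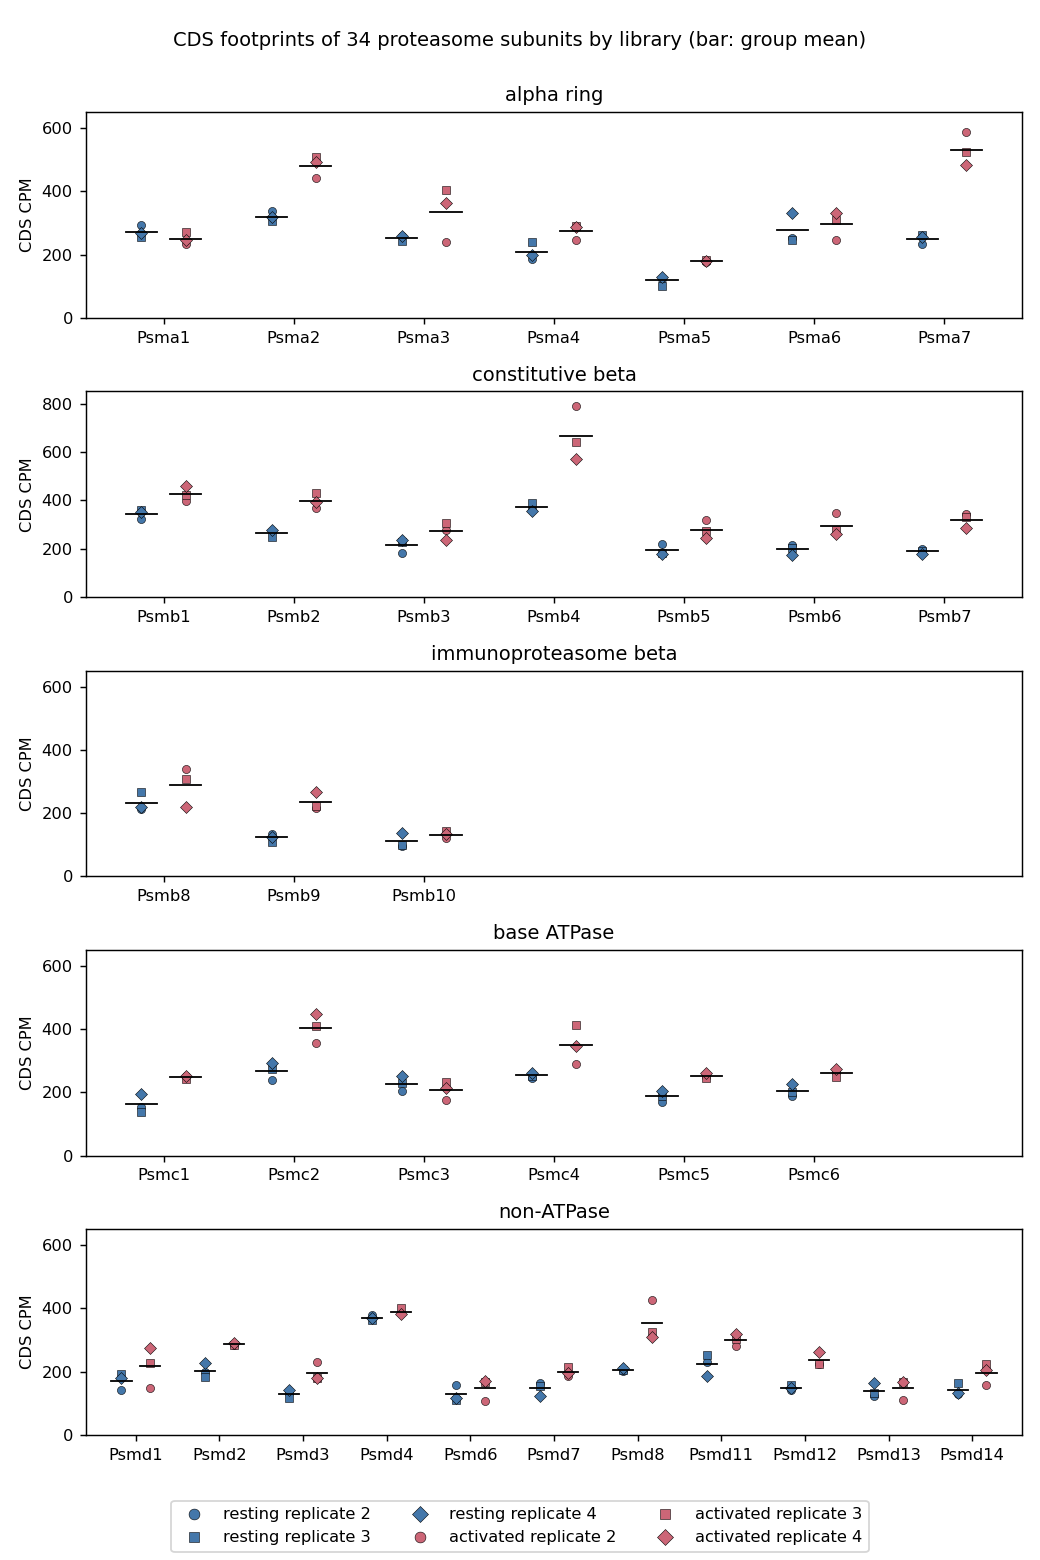
CDS CPM (vertical axis) of the 34 subunits in each of the 6 libraries, in 1 panel per group of subunits; blue marks are resting, red marks activated, the marker shape gives the replicate number and the bar the group mean. Activated libraries lie above all resting libraries in 23 subunits, and the largest folds are those of Psma7, Psmb9 and Psmb4 (log2 changes of 1.08, 0.94 and 0.84). Heights of different subunits are not comparable, since CPM is not divided by length.

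**Figure D2:**
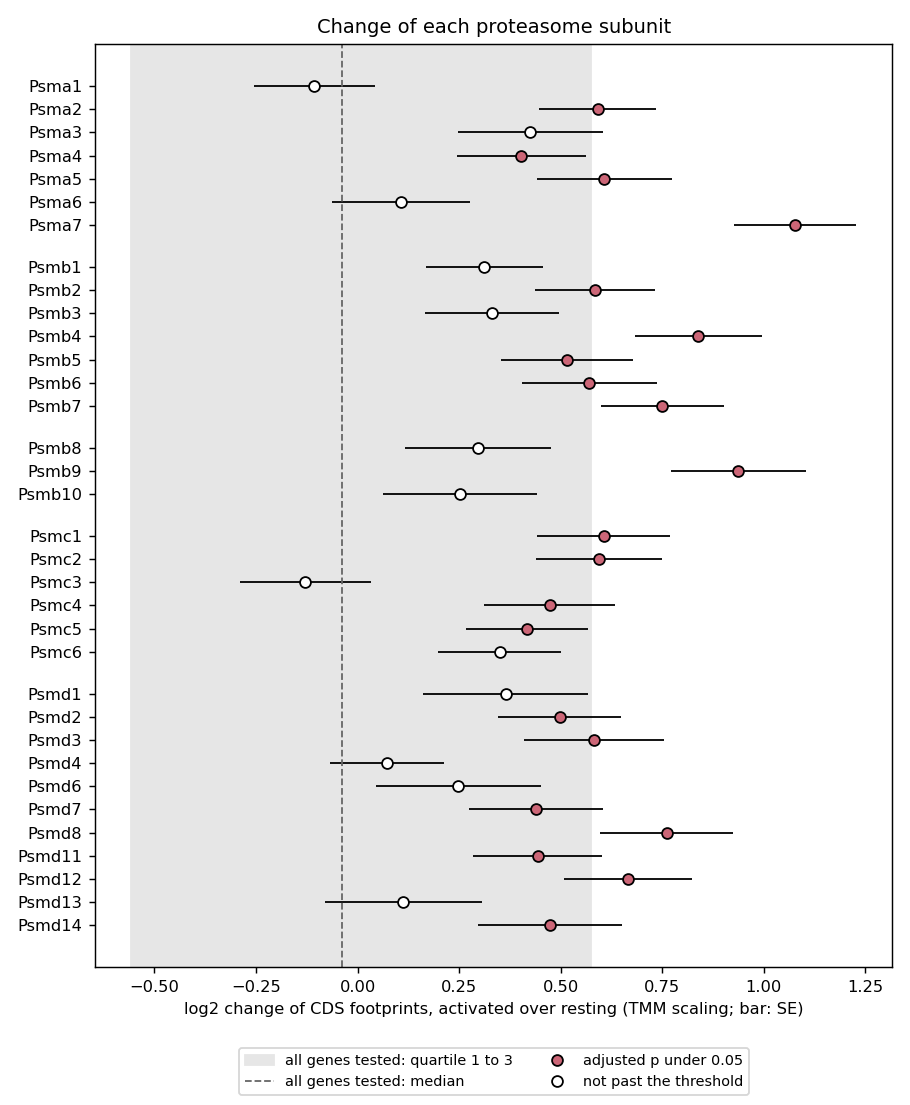
Log2 change of CDS footprints (horizontal axis, TMM scaling) of each subunit with its standard error; filled circles passed an adjusted p of 0.05, the grey band spans the lower to the upper quartile of all 6775 genes tested and the dashed line is their median. Of the subunits, 32 lie to the right of that median, and Psma1 and Psmc3 lie to its left.

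The direction of the smaller changes depended on how libraries were scaled. TMM and RLE factors gave 21 subunits higher and 0 lower. Upper quartile factors, under which the median of all genes was -0.17, gave 13 higher and 0 lower. Library totals alone, under which it was -0.38, gave 5 higher (Psma7, Psmb4, Psmb7, Psmb9 and Psmd8) and 2 lower, Psma1 (log2 change -0.44, edgeR adjusted p = 0.0203; 0.0203 to 0.847 over the 16 alternatives) and Psmc3 (-0.47, edgeR adjusted p = 0.0235; 0.0235 to 0.932). Of all 6775 genes tested, upper quartile factors gave 1392 higher and 1881 lower, and library totals alone 1099 higher and 2560 lower. With library totals alone, calls of higher were thus no more frequent among the 34 subunits than among all genes. The median of the subunits was 0.32 and 0.12 under these last scalings. The log2 change was above 0 under all 4 scalings for 24 subunits, below 0 under all 4 for Psma1 and Psmc3, and of varying sign for 8: Psma6, Psmb1, Psmb3, Psmb8, Psmb10, Psmd4, Psmd6 and Psmd13. None of these 8 passed the test with TMM. Directions below are relative to the TMM scaling.

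**Figure D3:**
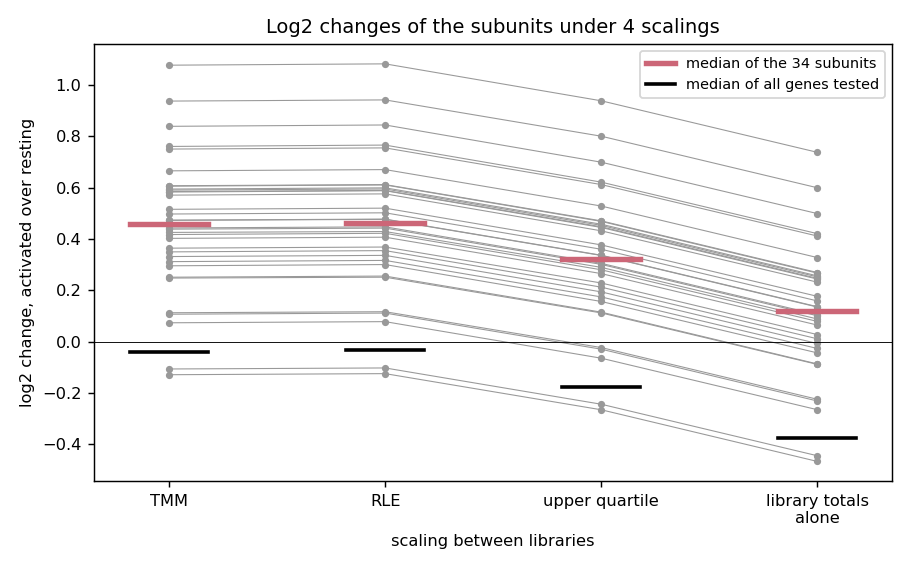
Log2 change (vertical axis) of each of the 34 subunits (grey points joined by lines) under 4 scalings between libraries; red bars are the medians of the subunits and black bars the medians of all genes tested. All values shift together, and the red bar stays above the black bar under each of the 4 scalings, at 0.46 against -0.04 with TMM and 0.12 against -0.38 with library totals alone.

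The share of all CDS counts that lay on the 34 subunits uses no TMM factor. It divides by the total of a library, so it is in effect the scaling by library totals alone and not independent of that choice. Under that scaling the median log2 change of the subunits was 0.12, against 0.46 with TMM. The resting libraries had 0.773%, 0.790% and 0.813%, and the activated libraries 0.845%, 0.905% and 0.875%. The activated libraries were all above the resting ones, with means of 0.875 ± 0.030% and 0.792 ± 0.020% (SD, n = 3). The 95% Wilson intervals, which cover counting error only, were 0.791% to 0.836% for resting replicate 4 and 0.820% to 0.870% for activated replicate 2, the nearest libraries of the groups, and these overlap. Among the groups of subunits, the constitutive beta subunits and the immunoproteasome subunits had shares that did not overlap between resting and activated cells. The share of the constitutive beta subunits averaged 0.194 ± 0.0024% at rest and 0.231 ± 0.016% after activation (SD, n = 3), and that of the immunoproteasome subunits 0.0509 ± 0.0026% and 0.0570 ± 0.0025%. The immunoproteasome shares were barely apart, at 0.0480% to 0.0530% at rest and 0.0542% to 0.0586% after activation. With library totals alone, only Psmb9 among them had a log2 change above 0 (0.60, against -0.04 for Psmb8 and -0.09 for Psmb10). How often such shares of other genes do not overlap was not computed. The alpha ring, the ATPases and the other regulatory subunits overlapped.

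**Figure D4:**
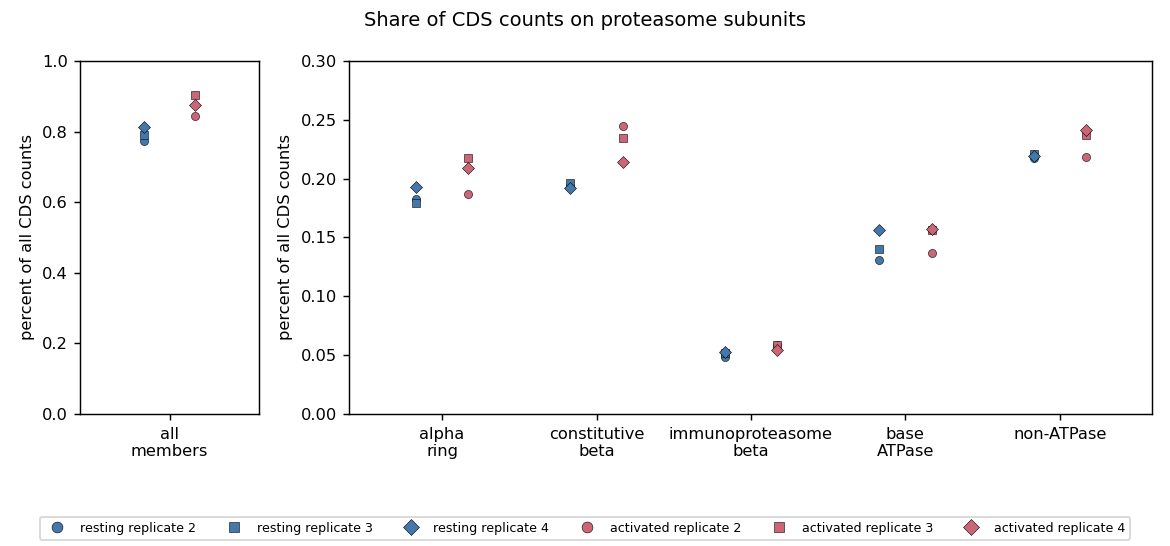
Percent of all CDS counts (vertical axes) on all 34 subunits (left) and on each group of subunits (right), by library; blue marks are resting, red marks activated. On all subunits the activated libraries (0.845% to 0.905%) lie above the resting ones (0.773% to 0.813%), while the alpha ring, base ATPase and non-ATPase groups overlap.

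In the alpha ring, which guards the entry to the core, 4 of 7 subunits rose (Psma2, Psma4, Psma5 and Psma7) and 0 fell. Psma7 (ENSMUSG00000027566) had 233, 261 and 257 CPM at rest and 586, 524 and 483 CPM after activation. All activated values lay far above all resting values. Its log2 change was 1.08 (SE 0.15, edgeR adjusted p = 2.40e-05), a fold of 2.11 and the highest of the 34. Psma1 (ENSMUSG00000030751), an alpha subunit of the same ring, had the lowest change in it. Its CPM was 292, 255 and 267 at rest and 234, 273 and 246 after activation. These values overlap, and the log2 change was -0.11 (SE 0.15, edgeR adjusted p = 0.585).

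The other alpha subunits lay between these. Psma2 rose (log2 change 0.59), with 307 to 336 CPM at rest and 441 to 508 CPM after activation. Psma5 also rose (0.61), with 100.6 to 131 CPM and 177 to 182 CPM. Neither overlapped between the groups, nor did Psma4 (185 to 240.1 CPM and 245 to 289 CPM; log2 change 0.40, edgeR adjusted p = 0.0487), close to the threshold. Psma5 missed it without resting replicate 3 (0.51, edgeR adjusted p = 0.0538; 0.00267 to 0.183 over the 16 alternatives). Of the 6 fits that left out a library, Psma4 passed only in those without resting replicate 3 or activated replicate 2, in a range of 0.0187 to 0.749 over the 16 alternatives. Psma3 had 242 to 259.8 CPM at rest, and 241 CPM in activated replicate 2 against 405 and 363 in activated replicates 3 and 4. Its log2 change was 0.43 (edgeR adjusted p = 0.0634), and 0.62 without activated replicate 2 (edgeR adjusted p = 0.00250; 0.00250 to 0.697 over the 16 alternatives). Psma6 had 276 ± 48.3 CPM at rest (245 to 332) and 296 ± 45.4 CPM after activation (245 to 333; SD, n = 3; edgeR adjusted p = 0.632).

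Of the 7 constitutive beta subunits, 5 rose (Psmb2, Psmb4, Psmb5, Psmb6 and Psmb7) and 0 fell. Psmb4 (ENSMUSG00000005779), a beta subunit without an active site, rose most. It had 366, 391 and 355 CPM at rest and 788, 640 and 571 CPM after activation. The groups were far apart, and activated replicate 2 stood highest. The log2 change was 0.84 (SE 0.16, edgeR adjusted p = 4.04e-04). Psmb1 (ENSMUSG00000014769), also without an active site, had the smallest log2 change of the 7, with 324, 358 and 350 CPM at rest and 398, 424 and 459 CPM after activation. The groups did not overlap, but the log2 change of 0.31 (SE 0.14) did not pass the test (edgeR adjusted p = 0.0890). It passed without activated replicate 2 (0.38, edgeR adjusted p = 0.0440; 0.0440 to 0.888 over the 16 alternatives). Psmb2 rose (log2 change 0.59), with 248 to 277 CPM at rest and 370.4 to 431 CPM after activation. Psmb3 had 183 to 238 CPM at rest and 236 to 308 CPM after activation, and did not pass the test (0.33, edgeR adjusted p = 0.111) except without activated replicate 4 (0.47, 0.0401; 0.0401 to 0.974 over the 16 alternatives). Neither has an active site.

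The constitutive subunits that carry the active sites all rose. Psmb5 (ENSMUSG00000022193), which cuts after hydrophobic residues, had 221, 183 and 178 CPM at rest and 318, 274 and 244 CPM after activation. All activated values lay above all resting values, and the log2 change was 0.52 (SE 0.16, edgeR adjusted p = 0.0169). Psmb6 (ENSMUSG00000018286), which cuts after acidic residues, had 217, 203 and 174 CPM at rest and 348, 279 and 260 CPM after activation. Its groups did not overlap either (log2 change 0.57, SE 0.17, edgeR adjusted p = 0.0101). Psmb7 (ENSMUSG00000026750), which cuts after basic residues, had 198, 191 and 180 CPM at rest and 343, 329 and 287 CPM after activation. The rise of Psmb7 was the clearest of these 3 (log2 change 0.75, SE 0.15, edgeR adjusted p = 7.75e-04).

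The calls of Psmb5 and Psmb6 were lost in some fits that left out a resting library, where their standard errors were also larger. With all libraries kept, Psmb5 missed the threshold with upper quartile factors and with library totals alone, and Psmb6 with library totals alone. Psmb5 missed the threshold without resting replicate 3 (log2 change 0.49, edgeR adjusted p = 0.0702) or resting replicate 4 (0.45, 0.0773), in a range of 0.00398 to 0.370 over the 16 alternatives. Psmb6 missed it without resting replicate 4 (0.48, edgeR adjusted p = 0.0603; 0.00193 to 0.242 over the 16 alternatives). Psmb7 passed under all 16. RefSeq names pseudogenes after 4 subunits: Psma5 and Psmb5 (1 each) and Psmb6 and Psmb7 (2 each). Alignments that were not unique are not in these counts, so footprints shared with such copies may be missing.

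Of the 3 immunoproteasome subunits, Psmb9 rose, and Psmb8 and Psmb10 did not pass the test. Psmb9 (ENSMUSG00000096727), which lies in the MHC region at chr17:34182030-34187330 (GRCm38.p6), had 135, 110 and 126 CPM at rest and 216, 221 and 267 CPM after activation. The groups were well separated, and the log2 change was 0.94 (SE 0.17, edgeR adjusted p = 2.49e-04), the second highest of the 34. Psmb8 (ENSMUSG00000024338), its neighbour at chr17:34198195-34201454, had 212, 266 and 220 CPM at rest and 341, 308 and 219 CPM after activation. Activated replicate 4 lay among the resting values, and the log2 change was 0.30 (SE 0.18, edgeR adjusted p = 0.192). Without that library it was 0.50 and passed the threshold (edgeR adjusted p = 0.0270; 0.0270 to 0.848 over the 16 alternatives). Psmb10 (ENSMUSG00000031897) had 94.6, 98.9 and 138 CPM at rest and 120.4, 142 and 133 CPM after activation. Resting replicate 4 reached into the activated range, and the log2 change was 0.25 (SE 0.19, edgeR adjusted p = 0.295).

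Each immunoproteasome subunit takes the place of 1 constitutive subunit, so the counts of both were set against each other within a library, where no scaling enters. Per 100 Psmb5 counts, Psmb8 had 96.2, 145 and 123 at rest and 107, 112 and 90.0 after activation. Per 100 Psmb6 counts, Psmb9 had 62.1, 54.4 and 72.6 at rest and 62.1, 79.3 and 103 after activation. Both of these pairs overlapped between the groups. Per 100 Psmb7 counts, Psmb10 had 47.9, 51.7 and 76.9 at rest and 35.1, 43.1 and 46.3 after activation, so that all activated values lay below all resting values. The mean log2 ratio, activated minus resting, was -0.22 for Psmb8 to Psmb5 (exact two-sided permutation p = 0.4), 0.35 for Psmb9 to Psmb6 (exact p = 0.3) and -0.48 for Psmb10 to Psmb7 (exact p = 0.1). The smallest p that 3 libraries against 3 allow is 0.1, and after adjustment over the 3 pairs the values were 0.4, 0.4 and 0.3. No common shift between the catalytic sets was detectable with these libraries. The difference for Psmb10 to Psmb7 was -0.27 without resting replicate 4, the library where Psmb10 was highest. Without activated replicate 4, the difference for Psmb9 to Psmb6 was 0.16, and without resting replicate 3 that for Psmb8 to Psmb5 was -0.08.

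Among the 6 ATPases of the base, which unfold substrates and thread them into the core, 4 rose (Psmc1, Psmc2, Psmc4 and Psmc5) and 0 fell. Psmc1 (ENSMUSG00000021178) rose most, with 153, 139 and 195 CPM at rest and 252, 243 and 251 CPM after activation. The activated values were close together and above all resting values (log2 change 0.61, SE 0.16, edgeR adjusted p = 0.00675). Psmc3 (ENSMUSG00000002102) had the lowest log2 change of all 34 subunits. It had 204, 229 and 251 CPM at rest and 177, 231 and 213 CPM after activation, and the log2 change was -0.13 (SE 0.16, edgeR adjusted p = 0.538). Psmc2 rose by 0.59, with 239.7 to 292 CPM at rest and 357 to 448 CPM after activation. Psmc4 (0.47, edgeR adjusted p = 0.0246) and Psmc5 (0.42, edgeR adjusted p = 0.0331) rose with less margin. Their CPM was 246 to 261 and 170.3 to 203 at rest, and 289 to 414 and 245 to 261 after activation. Psmc4 missed the threshold without any 1 of the 3 resting libraries or activated replicate 3, and Psmc5 without any 1 of the 3 resting libraries or activated replicate 4. The adjusted p ranged from 0.00358 to 0.499 for Psmc4 and from 0.0187 to 0.680 for Psmc5 over the 16 alternatives. Psmc6 had 187 to 226 CPM at rest and 249 to 275 CPM after activation. These did not overlap, but the log2 change of 0.35 did not pass (edgeR adjusted p = 0.0700; 0.0442 to 0.955 over the 16 alternatives).

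Of the 11 non-ATPase subunits of the regulatory particle, 7 rose and 0 fell. Psmd8 (ENSMUSG00000030591), a subunit of the lid, rose most. It had 202, 206 and 212 CPM at rest and 427, 326 and 309 CPM after activation. The groups were far apart, and activated replicate 2 was highest (log2 change 0.76, SE 0.16, edgeR adjusted p = 0.00123). Psmd4 (ENSMUSG00000005625), a ubiquitin receptor, had the smallest log2 change of the 11. Its values were 378, 362 and 370 CPM at rest and 386, 400 and 382 CPM after activation. The groups did not overlap, yet the shift was small beside its error (log2 change 0.07, SE 0.14, edgeR adjusted p = 0.691).

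The scaffold subunits Psmd1 and Psmd2 differed in their calls: Psmd2 rose (log2 change 0.50; 0.44 with an edgeR adjusted p of 0.0740 without resting replicate 3, in a range of 0.00564 to 0.393 over the 16 alternatives). Psmd2 had 183 to 227 CPM at rest and 284 to 292 CPM after activation. Psmd1 had a log2 change of 0.36 that did not pass (edgeR adjusted p = 0.154). Its CPM was 143 to 191 at rest, and it was 148 in activated replicate 2 against 228 and 275 in activated replicates 3 and 4. It passed without that library, at 0.57 (edgeR adjusted p = 0.0104; 0.0104 to 0.916 over the 16 alternatives). In the lid, Psmd3 (0.58), Psmd7 (0.44), Psmd11 (0.44), Psmd12 (0.67) and Psmd14 (0.47) rose. At rest and after activation, CPM was 115 to 141 and 179 to 232 for Psmd3, and 124 to 164 and 186 to 215 for Psmd7. It was 186 to 251 and 279 to 320.4 for Psmd11, and 141 to 159 and 223 to 263 for Psmd12. None of these 4 overlapped. Psmd3 missed the threshold without resting replicate 3 (0.51, edgeR adjusted p = 0.0646; 0.00368 to 0.239 over the 16 alternatives). Psmd7 missed it without any 1 of the 3 resting libraries or activated replicate 3 (0.0171 to 0.625 over the 16 alternatives), and Psmd11 and Psmd14 missed it without resting replicate 2, resting replicate 4, activated replicate 3 or activated replicate 4 (0.0146 to 0.595 and 0.00644 to 0.533). Psmd14 removes ubiquitin chains from the substrate, and Psmd7 is its structural partner. For Psmd14 the groups overlapped, at 128 to 165 CPM in resting and 159 to 225 CPM in activated cells. Psmd6 (0.25; 110.3 to 158 and 107 to 170.3 CPM) and Psmd13 (0.11; 122 to 163 and 109 to 167 CPM), also of the lid, overlapped between the groups and did not pass the test.

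Activated replicate 2 was the lowest of the activated libraries in 21 of the 34 subunits (61.8%), and in 38.3% of all genes tested. It was also the activated library with the fewest CDS counts. Without it 24 subunits were higher, and without activated replicates 3 or 4 the numbers were 16 and 19. Without resting replicates 2, 3 or 4 the numbers were 15, 14 and 13. In each of these fits 0 subunits were lower. Of the 6942 to 7175 genes tested in these fits, 1462 to 1668 were higher and 1159 to 1387 lower. Of the 21 subunits that rose, 10 passed with each of the 6 libraries left out (Psma2, Psma7, Psmb2, Psmb4, Psmb7, Psmb9, Psmc1, Psmc2, Psmd8 and Psmd12). Psma5, Psmb6, Psmd2 and Psmd3 passed in 5 of 6 and Psmb5 in 4 of 6. Psma4, Psmc4, Psmc5, Psmd7, Psmd11 and Psmd14 passed in 2 of 6, and their log2 changes stayed above 0 in all 6.

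The composition of the set was compared by the share of each subunit in the summed counts of all 34, which no scaling factor touches. In 11 subunits (32.4%) this share did not overlap between the groups. Set against the same sum, 64.3% of all genes tested did not overlap. The subunits make up that sum and other genes do not, so these percentages are not directly comparable. The share was higher in activated cells for 6 subunits (Psma5, Psma7, Psmb4, Psmb7, Psmb9 and Psmd8) and lower for 5 (Psma1, Psma6, Psmc3, Psmd4 and Psmd13). Psma7 went from 3.45 ± 0.16% to 5.29 ± 0.60% of the subunits' counts (SD, n = 3), and Psmb4 from 5.11 ± 0.31% to 6.64 ± 1.23%, with 8.03% in activated replicate 2. For Psma5 the groups were barely apart, at 1.39% to 1.76% and 1.76% to 1.81%. In the other direction, Psmd4 went from 5.10 ± 0.20% to 3.87 ± 0.06%, Psma1 from 3.74 ± 0.33% to 2.49 ± 0.13% and Psmc3 from 3.13 ± 0.25% to 2.06 ± 0.22%. These shares are a description, with no test.

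**Figure D5:**
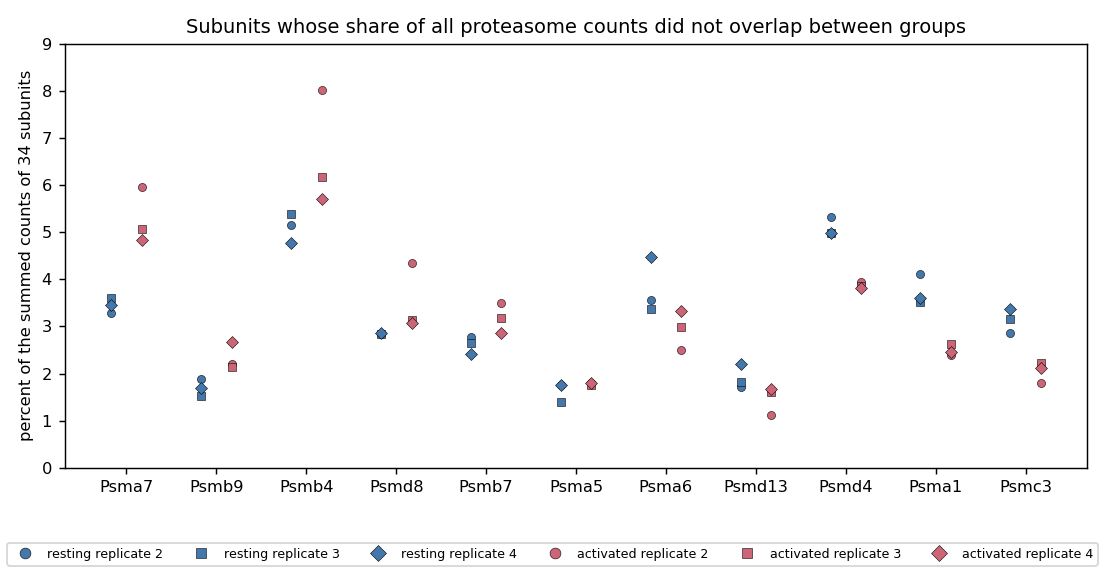
Percent of the summed CDS counts of the 34 subunits (vertical axis) held by each of the 11 subunits whose values did not overlap between groups, by library, ordered by the ratio of activated to resting means. Psma7 at the left averages 3.45% at rest and 5.29% after activation, and Psmc3 at the right 3.13% and 2.06%.

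Few footprints lay outside the coding sequence of these genes. For every 100 CDS counts, the 5' UTRs of the 34 subunits held 4.03 ± 0.18 at rest and 4.49 ± 0.29 after activation (SD, n = 3), against 13.8 ± 0.80 and 15.8 ± 2.88 over all genes tested. The 3' UTRs of the subunits held 58 counts in all and their introns 49. In 12 subunits the 5' UTR had no count in any library, among them Psmb5, Psmb6 and Psmb7, and 3 had between 1 and 4 counts. The ratio of 5' UTR to CDS counts changed in 0 of the 19 subunits tested (edgeR), against 0.455% of all genes tested. In 2 of the 19, Psmb3 and Psmd14, the unadjusted edgeR p was under 0.05, as in 472 of the 4834 genes tested.

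A pair of subunits held 52.7% of the 1496 counts in 5' UTRs: Psma4, of the alpha ring, with 438, and Psmd14, the deubiquitinating subunit, with 351. For every 100 CDS counts of Psma4, the resting libraries had 36.4, 34.5 and 36.4 in its 5' UTR and the activated libraries 52.8, 53.0 and 47.8. These raw ratios did not overlap. With each region scaled on its own, the log2 change of the ratio was 0.23 (SE 0.30, edgeR adjusted p = 0.879). For Psmd14 the resting libraries had 62.3, 47.1 and 74.7 and the activated libraries 41.4, 33.5 and 57.8, which overlap. Its log2 change was -0.73 (SE 0.33, edgeR adjusted p = 0.435). Both genes were singled out after their values were seen.

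Promoters were read from RefSeq (build GRCm38.p6) as a description of these genes, after the data were seen. Whether any motif bears on the footprint changes was not tested. Of the 34 subunits, 28 matched a promoter by symbol; Psmb1, Psmb2, Psmb7, Psmc3, Psmd3 and Psmd7 did not. The 250 bases before each start were searched on both strands for 11 motifs, and a gene counted once if any of its promoters held a match. The antioxidant response element core TGACNNNGC, the kind of site through which the factor Nfe2l1 is known to raise proteasome genes, was present in 4 of 28 subunits (14.3%) and in 11.5% of the 27025 genes with a promoter. Of these 4, Psmb5, Psmb6 and Psmd12 rose, and Psmc6 did not pass the test. The matches are shown in capitals, as the strand of the gene reads from 5' to 3', because this is the textbook element of the family. The window of Psmb6 ends at the start listed in the table but lies inside the bounds RefSeq gives for the gene.
Psmb5, chr14:54618022-54618054, minus strand: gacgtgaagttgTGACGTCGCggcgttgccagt
Psmb6, chr11:70525336-70525356, plus strand: gactaaagagagTGACGGAGC
Psmd12, chr11:107479278-107479301, plus strand: tctGCTGTGTCAcatttgcccccc
Psmc6, chr14:45329585-45329617, plus strand: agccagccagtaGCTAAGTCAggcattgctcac

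The ETS core CCGGAA was the motif with the widest gap to other genes among the 11 searched. It was present in 12 of 28 subunits (42.9%) and in 13.6% of genes with a promoter, and it is shown for that reason, chosen after the counts were seen. No test was made of this. Of the 12, 7 rose (Psma5, Psmc1, Psmc2, Psmc5, Psmd2, Psmd11 and Psmd12), and Psma6, Psmc6, Psmd4, Psmd6 and Psmd13 did not pass the test. None was a beta subunit, but Psmb1, Psmb2 and Psmb7 had no promoter to search. A match is shown in capitals for 6 subunits of the regulatory particle and 1 of the alpha ring, all outside the gene bounds RefSeq gives, and TTCCGG is the same motif on the other strand.
Psma5, chr3:108256760-108256789, plus strand: cagcaaacctagTTCCGGctgccaccgagc
Psmc1, chr12:100110163-100110192, plus strand: tggtggatgcacTTCCGGcggtggcgattt
Psmc2, chr5:21785180-21785209, plus strand: accagtgagcacTTCCGGgatggggctcgc
Psmc5, chr11:106256078-106256107, plus strand: ccgcccattgacCCGGAActgttctcggtg
Psmd4, chr3:95042722-95042751, minus strand: cttacagctgttCCGGAAgctgctgcgaag
Psmd6, chr14:14120973-14121002, minus strand: ccagagacgcgaCCGGAAgtcagactggcg
Psmd11, chr11:80428593-80428614, plus strand: cgagggcgggtcTTCCGGgtgt

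Motifs tied to interferon signals were found in few of the windows. The gamma-activated site TTCNNNGAA was present in 1 of 28 subunits, the immunoproteasome gene Psmb8, and in 8.13% of genes with a promoter. It is printed because Psmb8 is an interferon-inducible gene.
Psmb8, chr17:34198086-34198118, plus strand: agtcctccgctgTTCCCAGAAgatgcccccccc

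Of the remaining motifs, the GC box GGGCGG had the widest gap, in 15 subunits (53.6%, against 35.4% of genes), 12 of which rose. Among all 34 subunits 21 rose (61.8%), but motif counts cover only the 28 with a promoter. Of the 6 with no promoter listed, Psmb2, Psmb7, Psmd3 and Psmd7 rose, and Psmb1 and Psmc3 did not pass the test. The shares of genes are over all 27025 with a promoter, whether or not they passed the filter on low counts. The interferon-stimulated response element core GAAANNGAA was in 2 subunits (Psmb3 and Psmd4; 8.18% of genes), and the AP-1 site TGAGTCA in 0 (5.16%). The CCAAT box (CCAAT) was in 11 (39.3%, against 37.5%), the TATA box TATAAA in 4 (14.3%, both) and the E-box CACGTG in 2 (7.14%, against 6.86%). The NF-kappaB core GGGNNTTCC was in 1 (5.61% of genes), and the nuclear respiratory factor core GCGCATGCG in 1 (1.64%). Motifs may overlap each other in a window. A match says only that these letters are present, and footprints do not show which factors were bound.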

How the data were processed

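The authors deposited 1 table of raw counts of ribosome footprints per gene, with 36 count columns, 6 for each of 6 libraries, all matched to samples by their labels. Per the submitters' processing notes, the tools were TopHat2 2.0.13, Bowtie 1.1.1.0 and HTSeq, and the build was mm10. The sources used here do not give the annotation release, the trimming or the strandedness, so overlapping genes on opposite strands cannot be separated. Rows that name no gene were left out of library sizes; records not uniquely aligned were 65.8% to 79.6% of a library's records.

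CDS counts of all genes were fitted with edgeR 4.0.16 in R 4.3.3 (filterByExpr, TMM, estimateDisp, glmQLFit, glmQLFTest, two-sided), with no covariate. SE is the log2 change over the square root of F. The ratio of 5' UTR to CDS counts was tested in 1 edgeR model over both, with a term per library, for genes with at least 5 counts in the 5' UTR. DESeq2 1.42.0, limma 3.58.1 (voom), other scalings, a replicate block, other count columns and left-out libraries were alternatives. Fits were tested on simulated data. Libraries of a group differed by more than sampling noise (chi-square per degree of freedom 1.95 to 4.85).

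Values in every library are printed for Psmb5 to Psmb10 and, in each other group of subunits, for the highest and lowest log2 change; the rest by range. The subunits, gene lists and tests were chosen with earlier results of these data known. Composition shares and promoter motifs were added after the data were seen. Footprint density per coding length was not computed, since no lengths were used here.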

Additional observations from a re-analysis of the deposited data

How the results depend on the processing

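Of the 34 subunits 21 were higher in edgeR with TMM. The number was 13 with upper quartile factors, 5 with library totals alone and 11 at an adjusted p under 0.01. It ranged from 13 to 24 with each library left out, lowest without resting replicate 4. Subunits called lower numbered 0, and 2 (Psma1 and Psmc3) with library totals alone. Over all genes 1633 were higher, against 1392 with upper quartile factors, 1099 with library totals alone and 1267 at the stricter threshold. Over all genes 1449 were lower, against 822 with DESeq2, 909 at the stricter threshold and 2560 with library totals alone. The cause of each was not tested, beyond the stricter threshold itself. DESeq2 gave 16 higher subunits (1389 of 8554 genes tested), limma voom 21 (1615 of 6775) and exon counts 19 (1812 of 7490). Intersection-nonempty CDS counts gave 19 (1706 of 7047) and no low-count filter 22 (1856 of 12873). No subunit that rose changed sign under any of the 16 alternatives of the CDS fit, and 5 passed under all of them (Psma7, Psmb4, Psmb7, Psmb9 and Psmd8). Of 544 single-subunit values, 461 kept their side of the threshold, 73 lost it and 10 gained it.

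The rise in the share of CDS counts, 0.083 percentage points, was 0.065 to 0.099 under the alternatives. Calls of 5' UTR counts relative to the CDS stayed at 0 subunits in all 9 alternatives. Over all genes these fits called 1 to 21 higher and 1 to 21 lower. They tested 4834 genes, or 6775 with no minimum of 5' UTR counts. With so few calls over all genes, 0 among the subunits says little.

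The replicate number as a block gave 23 higher subunits (1791 and 1655 of all genes higher and lower). Psma3 (log2 change 0.41, edgeR adjusted p = 0.0328) and Psmc6 (0.35, 0.0442) passed with it, and it changed no other call among the subunits. Deviations of same-numbered libraries correlated at 0.12, 0.07 and 0.22, and those of differently numbered libraries at -0.14 to 0.0028. Each library thus correlated best with its own number, which is a hint from the data and not from the design. The numbers were not taken to pair the libraries, since 1 of the 3 correlations was not above 0.1 and no label says what a number shares. Subunits had 487 (Psmb10) to 2038 (Psmb4) CDS counts in all, and the effect of depth on single calls was not tested.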
